A study of Homo sapiens with 8 samples.

Results

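Genes of protein and lipid kinases and phosphatases were taken from the poly(A) site comparisons of MDA-MB-231 cells, a human triple-negative breast cancer line, by the start of their symbols: MAPK, MAP2K, MAP3K, MAP4K, CDK, STK, PPP1 to PPP6, PPM1, PTP, DUSP, PRKA, PRKC, CSNK, CAMK, PIK3, PI4K, PIP4, PIP5, AKT, MTMR, NEK, PAK, WNK and DYRK. This gave 115 of the 3656 genes with at least 1 pair of sites. Of these, 106 encode a catalytic or regulatory subunit of a kinase or phosphatase and 9 share only the name, such as the cyclin-dependent kinase inhibitor CDKN1B, the kinase-binding protein MAPKBP1 and the antisense RNA PPP3CB-AS1. All 8 samples carried a dead Cas9 fused to the KRAB repressor (CRISPRi), delivered by lentivirus, and fell into 4 groups of 2 replicates: cells with non-targeting control guides, HNRNPC knockdown (KD), PABPC4 KD, and KD of both genes (double KD). The readout was QuantSeq REV, which sequences RNA 3′ ends after priming on poly(A) with oligo(dT). The sorted cells are a pool of 1 line, and the labels do not say whether the replicates came from separate cultures; the study's methods describe its sequencing experiments as biological duplicates.

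Protein kinases attach phosphate to serine, threonine or tyrosine, and phosphatases remove it; lipid kinases and phosphatases do the same to phosphoinositides. Many work as holoenzymes, in which a regulatory subunit places or restrains the catalytic subunit, as in protein kinase A and in phosphatases 1, 2A, 4 and 6. Alternative polyadenylation gives their mRNAs 3′ ends of different length, and with them a different set of regulatory sites in the 3′ untranslated region (UTR). HNRNPC is a nuclear protein that binds runs of U in pre-mRNA, and PABPC4 binds poly(A) tails.

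Each value below is a logAPAR, which compares how often the proximal site of a pair was used relative to the distal one in a KD and in control, as a fold change on the natural log scale. Values under 0 mean a shift to the distal site, values over 0 one to the proximal site. Errors are Wald standard errors (SE) recovered from the deposited p-values. They cover counting error alone, since the tables hold no value per library, and a p-value here says nothing of the spread between replicates. Whether HNRNPC and PABPC4 were depleted could not be read from these pairs and was not checked here. The name of the table used for PABPC4 KD mixes abbreviations of both proteins, and it was assigned by elimination, so every PABPC4 KD value and every difference that uses it rests on that assignment. For HNRNPC KD 186 pairs of member genes were listed, for PABPC4 KD 189 and for double KD 202, and 162 pairs of 88 genes stood in all 3. Most genes had 2 sites (72 of 107 genes in double KD), and 28 genes had 3 or more sites shared by the tables, which let the normalised reads of each site be solved from the errors. At these genes the median reads per site, both libraries of a group summed, were 14.04 in control, 11.8 after HNRNPC KD, 12.4 after PABPC4 KD and 13.99 after double KD. At the median SE of the member pairs in double KD, 0.795, a logAPAR of 2.05 was needed to pass p 0.01, so that a moderate shift of most members was not detectable at this depth.

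Most of the shifts of kinase and phosphatase sites that passed the threshold were in double KD. There, 10 pairs of 9 genes passed p 0.01 by the deposited Wald test: the protein kinase A subunit gene PRKAR2A (2 pairs), the kinase genes STK10, CAMKK2, MAPK13, CSNK2A1 and PAK4, and the phosphatase genes PPM1K, PPP1R37 and PPP6R3. This was 4.95% of the member pairs, near the 4.33% of all pairs in that table. In HNRNPC KD 2 member pairs passed, of MAPK13 and of the phosphatase gene PPM1F, against 2.08% of all pairs. In PABPC4 KD no member pair passed the deposited Wald test at p 0.01, against 0.756% of all pairs. At an unadjusted Wald p under 0.05 there were 2 member pairs (1.06%), against 4.03% of all pairs. After Benjamini-Hochberg adjustment over each whole table at 0.05, 5 pairs of 4 genes were left in double KD (PRKAR2A, PPP1R37, PPM1K and CAMKK2), against 2.23% of all pairs. In either single KD 0 were left (0.427% of all pairs in HNRNPC KD and 0.0168% in PABPC4 KD). An unadjusted Wald p under 0.05 was found at 13 member pairs in HNRNPC KD (6.99%, against 6.77% of all pairs) and 2 in PABPC4 KD. With 1 pair per gene, the median logAPAR of the members was −0.06 in HNRNPC KD (95% order-statistic interval −0.25 to 0.22, 97 genes), −0.08 in PABPC4 KD (−0.21 to 0.04, 98 genes) and 0.11 in double KD (−0.14 to 0.25, 107 genes). Over all genes it was 0.01, −0.0013 and −0.0060. Each member interval held the value over all genes.

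**Figure D1:**
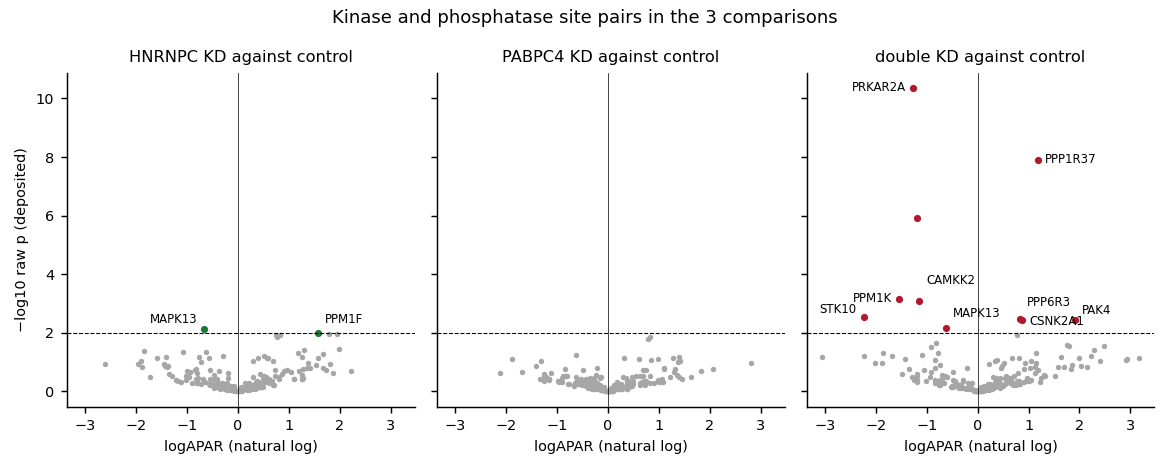
Each point is 1 site pair of a kinase or phosphatase gene, with logAPAR (natural log) on the x axis and −log10 of the deposited raw p on the y axis; the dashed line marks p 0.01 and coloured points pass it. Double KD holds 10 such points, labelled once per gene (the unlabelled one is the other pair of PRKAR2A), HNRNPC KD 2 and PABPC4 KD 0.

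At 5 of the 9 genes called in double KD the ends shared letters that the choice of genes did not use. Transcript ends of the called genes were placed on hg38 by name and version (Gencode release 44), and those the results turn on are shown 5′ to 3′. The first carried the hexamer AATAAA, the usual poly(A) signal, shown in capitals in the last 30 bases of the transcript:

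PRKAR2A distal end, ENST00000265563.13: tactcttgattAATAAAggctgacaaatca

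PPM1K distal end, ENST00000608933.6: tcattctAATAAAgtacatgcattaaacaa

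STK10 distal end, ENST00000176763.10: aaatatgcttctAATAAAataacaaggtta

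CAMKK2 distal end, ENST00000347034.6: acagttgaAATAAAcagacagcaaaatggt

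MAPK13 distal end, ENST00000211287.9: gactgaaAATAAAgttgtattctattccaa

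At 5 other ends, of PRKAR2A, PPM1K, STK10, PPP1R37 and PAK4, there was no AATAAA in the last 50 bases, and the end lay in or next to a stretch of A. Those of 4 genes are shown with the last 15 bases of the transcript and the 15 genomic bases after it, runs of 5 or more A in capitals:

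PPM1K end, ENST00000295908.11, chr4:88261856-88261885, minus strand: AAAAAAAAAAAAAAAAAAAAAttggctggg

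STK10 proximal end, ENST00000517360.1, chr5:172043096-172043125, minus strand: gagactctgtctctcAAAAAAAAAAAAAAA

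PPP1R37 distal end, ENST00000422370.2, chr19:45148063-45148092, plus strand: cAAAAAAAAAAAAAAttactaaacgagcat

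PAK4 distal end, ENST00000599386.5, chr19:39182802-39182831, plus strand: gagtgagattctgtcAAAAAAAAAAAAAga

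Near these 5 ends lay a short word of the Alu element, the commonest short interspersed repeat of primate genomes, which consists of a pair of like arms joined by an A-rich linker and followed by an A-rich tail. The 9-base word AATCCCAGC, which Alu consensus sequences carry in each arm, lay on the transcript strand 29 bases after the end at PRKAR2A (ENST00000296446.12) and 35 bases after it at PPM1K. It lay 269 bases before the end at PPP1R37 and 118 bases before it at PAK4. At STK10 it also lay before the end, inside chr5:172043215-172043244 on the minus strand. Ends with such a word nearby are called Alu-bordered here; this is a match of letters, and no repeat annotation was used.

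PRKAR2A encodes the type II alpha regulatory subunit, which holds the catalytic subunit of protein kinase A inactive until cAMP binds and anchors it to scaffold proteins. The gene lies at chr3:48744597-48847874 on the minus strand, and its annotated proximal end was 1940 bases past the coding end, against 5002 bases for the distal end. The proximal, Alu-bordered end held 162 reads in control, 114 after HNRNPC KD, 135 after PABPC4 KD and 46.4 after double KD. A site between the 2 transcript ends, named by position, held 210, 180, 203 and 214 reads, and the distal end 62.7, 54.4, 65.7 and 59.2 reads in the same order. The proximal end was thus lowest in double KD, at 14.5% of the gene's reads against 37.3% in control, while the reads of the other 2 sites in double KD lay within their counting error of control. The logAPAR of the proximal end to the position-named site was −0.19 (SE 0.16) in HNRNPC KD, −0.15 (SE 0.15) in PABPC4 KD and −1.27 (SE 0.19, raw Wald p 4.52e-11, adjusted p 1.95e-08) in double KD, a proximal to distal ratio of 0.281 times control. Against the AATAAA end the value in double KD was −1.20 (SE 0.25, adjusted Wald p 0.000149).

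PPM1K is a mitochondrial phosphatase that activates the dehydrogenase complex of branched-chain amino acid breakdown. The gene lies at chr4:88257620-88284769 on the minus strand. Its end in the A run, 727 bases past the coding end, held 56.3 reads in control, 69.1 after HNRNPC KD, 65.8 after PABPC4 KD and 25.8 after double KD. The AATAAA end, 4978 bases past the coding end, held 9.63, 19.0, 13.5 and 20.7 reads. The first of these sites was lowest in double KD and the distal one highest there. The logAPAR of this pair was −0.48 (SE 0.43) in HNRNPC KD, −0.18 (SE 0.46) in PABPC4 KD and −1.55 (SE 0.46, adjusted Wald p 0.0353) in double KD.

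STK10, a kinase that phosphorylates ezrin, radixin and moesin in lymphocytes, shifted the same way but on few reads. Its proximal end belongs to a retained-intron transcript and the distal end to the coding transcript (chr5:172042079-172188224, minus strand). The logAPAR was −0.08 (SE 0.91) in HNRNPC KD, −0.80 (SE 0.76) in PABPC4 KD and −2.24 (SE 0.75, raw Wald p 0.00293, adjusted p 0.102) in double KD. With 2 sites the reads of each cannot be solved, and the SE in double KD only says that each site held at least 1.77 normalised reads in each group.

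PPP1R37 and PAK4 shifted to the proximal site, and at both genes the Alu-bordered end was the distal one. PPP1R37, which binds and inhibits the catalytic subunit of phosphatase 1, lies at chr19:45091396-45148077 on the plus strand, and the distal end is that of a retained-intron transcript. Its logAPAR was 0.29 (SE 0.17) in HNRNPC KD, 0.32 (SE 0.18) in PABPC4 KD and 1.19 (SE 0.21, raw Wald p 1.22e-08, adjusted p 3.29e-06) in double KD, a ratio 3.28 times that of control. PAK4, a kinase downstream of the small GTPase CDC42 in control of the actin cytoskeleton, lies at chr19:39125770-39182816 on the plus strand. Its logAPAR was 0.38 (SE 0.72) in HNRNPC KD, −1.25 (SE 1.22) in PABPC4 KD and 1.91 (SE 0.65, raw Wald p 0.00360, adjusted p 0.122) in double KD. At these 5 genes the Alu-bordered end fell against its partner in double KD, as the proximal end at PRKAR2A, PPM1K and STK10 and as the distal end at PPP1R37 and PAK4.

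**Figure D2:**
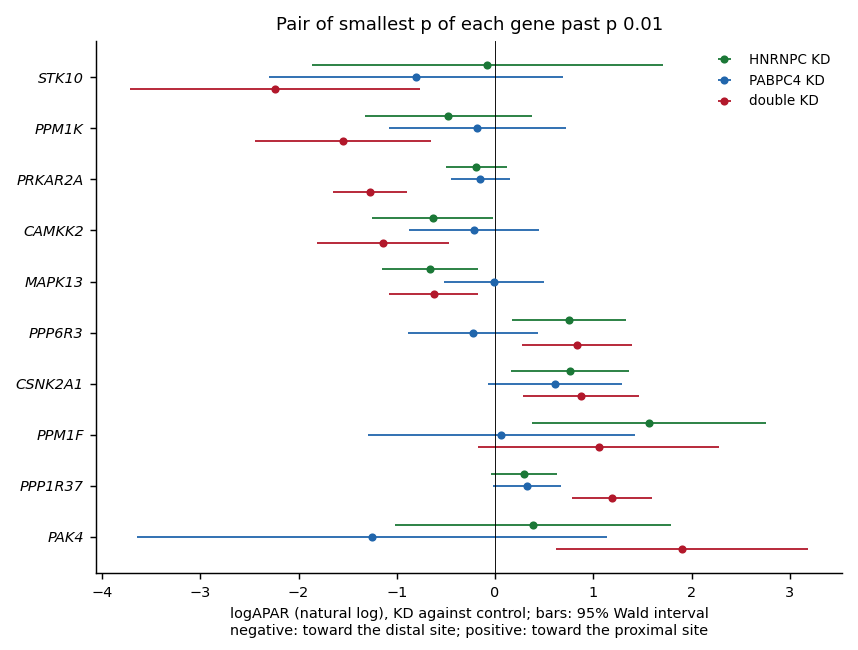
The x axis gives logAPAR (natural log) with its 95% Wald interval, for the pair of smallest p of the 10 genes that passed p 0.01 in any comparison, in HNRNPC KD, PABPC4 KD and double KD. For PRKAR2A and PPP1R37 the double KD interval lies apart from both single KD intervals, while for MAPK13 and CSNK2A1 the HNRNPC KD and double KD values nearly coincide.

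Every transcript end of the tables that could be placed was then searched, from 300 bases before to 50 bases after the end, for AATCCCAGC or TGAGGCAGG, another 9-base word of Alu, on the transcript strand. The words and the window were chosen after the ends of the called genes had been seen, so the counts are a description with no test. Either word was present at 281 of 4220 ends (6.66%) and at 11 of 133 member ends (8.27%); on the opposite strand it was present at 1.71% of all ends. In double KD, 13 member pairs had the words at 1 end: the log ratio of that end to the other had a median of −1.15, was negative in 11 of 13 pairs, and passed p 0.01 in 6, all with a fall of the Alu-bordered end. These 6 are pairs of the 5 genes that prompted the search, so they do not count towards it; the 6 pairs of the other member genes (CDK16, CDKN2AIPNL, CSNK1A1, NEK8 and STK3) ranged from −0.78 to 0.48 and 0 passed the deposited Wald test at p 0.01 or at an unadjusted p under 0.05. Of the 127 member pairs with a placed end and no such word, 4 passed. Among the genes that are no members, 340 pairs had the words at 1 end, with a median of −0.45. Of these pairs 67 passed (19.7%), 58 of them with a fall of that end, against 135 of 3980 pairs without the word (3.39%).

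Negative values were found mainly at Alu-bordered ends without AATAAA. The other canonical poly(A) signal, ATTAAA, was not counted as a signal in this split. Of the 9 member pairs with an Alu word and no AATAAA at 1 end, 9 had a negative log ratio of that end in double KD, with a median of −1.20, from −2.24 at STK10 to −0.30 at CDK16, a cyclin Y-dependent kinase. Of these 9 pairs, 7 belong to the genes that prompted the search, and only those of CDK16 and STK3 (−0.78, SE 1.02) do not. The 4 member pairs whose Alu-bordered end did carry AATAAA, at CSNK1A1 (casein kinase 1 alpha), NEK8, a ciliary kinase, and CDKN2AIPNL, had a median of −0.01 and none passed. Over all genes, the median was −0.67 at 289 pairs without AATAAA (73.7% negative, 22.8% past p 0.01) and 0.09 at 70 pairs with it (42.9% negative, 10.0% past p 0.01). Alu-bordered ends with a run of at least 8 A near the end had a median of −0.58 over all genes in double KD (214 pairs) and −1.37 over 6 member pairs, and those without such a run −0.31 (147 pairs) and −0.30 (7 member pairs). Of the 6 member pairs with the run, only that of STK3 lies outside the genes that prompted the search. The run of A with no Alu word gave a median of 0.01 over 341 pairs in double KD (49.9% negative, 5.87% past p 0.01) and 0.12 over 14 member pairs, of which 0 passed the deposited Wald test at p 0.01 and 1 had an unadjusted p under 0.05. Alu words on the opposite strand, the orientation in which the element carries U runs, gave a median of 0.04 over 95 pairs, of which 2 passed.

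In the single KDs the same ends had medians nearer 0. With an Alu word and no AATAAA at 1 end, the median over all genes was −0.06 in HNRNPC KD (284 pairs, 5.28% past p 0.01) and −0.10 in PABPC4 KD (287 pairs, 1.74%). Pairs without such an end passed at 2.26% in HNRNPC KD and 0.856% in PABPC4 KD. The end with the word fell in 9 of the 15 pairs that passed in HNRNPC KD and 4 of the 5 in PABPC4 KD. For the members the median was −0.34 in HNRNPC KD (10 of 10 pairs negative) and −0.17 in PABPC4 KD (8 of 10 negative), with 0 pairs past p 0.01 and 0 at an unadjusted p under 0.05 by the deposited Wald test in either. Only the pairs of CDK16 and PPP3CB-AS1 in HNRNPC KD, and of CDK16 and STK3 in PABPC4 KD, lie outside the genes that prompted the search. Pairs of 1 gene also share the same Alu-bordered end, so these member counts add little to those of double KD. The 3 tables share their control libraries, so these directions are not independent of each other. In double KD minus PABPC4 KD and double KD minus HNRNPC KD, where the control cancels, the median log ratio of an Alu-bordered end was −0.51 and −0.43 over 294 pairs of all genes, and −0.96 and −0.89 over 11 member pairs. Of these member pairs, only those of CDK16, CDKN2AIPNL and CSNK1A1 lie outside the genes that prompted the search. Those genes were called in double KD, which both differences use, so the 2 member medians follow from that choice and do not count as support. Whether priming of oligo(dT) inside transcripts, intron retention or RNA quality differed between the double KD libraries and the others was not tested. Of the 5 called ends with an Alu word, 2 belong to retained-intron transcripts, a class that made up 6.77% of the member ends.

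**Figure D3:**
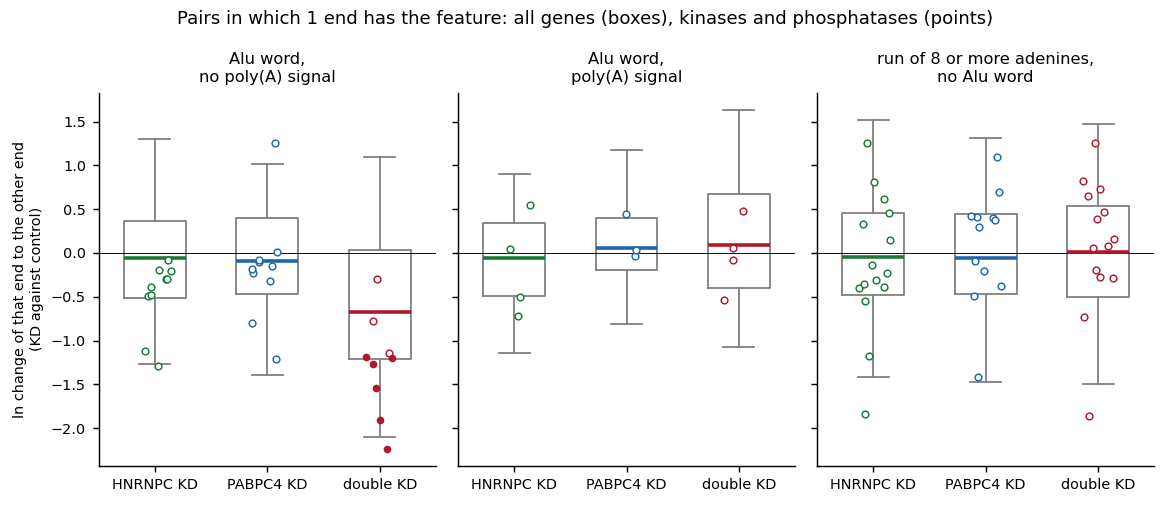
The y axis gives the natural log of the change of 1 end against the other end of its pair, KD against control. The pairs have at 1 end an Alu word without AATAAA, an Alu word with AATAAA, or a run of 8 or more adenines without an Alu word. The poly(A) signal of the panel titles is AATAAA alone. Boxes show the quartiles of all genes with the median in colour and whiskers at the 5th and 95th percentiles, points the kinase and phosphatase pairs, filled where p was under 0.01. The filled points all stand below 0, in double KD, at Alu words without AATAAA, and belong to the genes that prompted the search.

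The other 5 called genes carried no Alu word at a placed end. CAMKK2, the calcium-dependent kinase that activates AMPK, lies at chr12:121237675-121298308 on the minus strand. Its most proximal site held 65.3 reads in control, 55.9 after HNRNPC KD, 54.7 after PABPC4 KD and 30.2 after double KD, and its AATAAA end, 3005 bases past the coding end, 24.4, 39.5, 25.3 and 35.6 reads. The proximal site was lowest in double KD, and the distal end was higher in HNRNPC KD and double KD than in the other groups. The logAPAR was −0.64 (SE 0.32, raw Wald p 0.0437) in HNRNPC KD, −0.21 (SE 0.34) in PABPC4 KD and −1.15 (SE 0.34, adjusted p 0.0402) in double KD.

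MAPK13, the p38 delta kinase of stress signalling, shifted to the distal site in HNRNPC KD and in double KD. The logAPAR was −0.66 (SE 0.25, raw Wald p 0.00752, adjusted p 0.428) in HNRNPC KD, −0.01 (SE 0.26) in PABPC4 KD and −0.62 (SE 0.23, raw Wald p 0.00679, adjusted p 0.178) in double KD. Its distal end lies 5151 bases past the coding end, at position 36144521 of chromosome 6.

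CSNK2A1, the alpha catalytic subunit of casein kinase 2 (chr20:472498-543835, minus strand), shifted to a transcript end 199 bases past its coding end. This proximal end held 20.8 reads in control, 42.5 after HNRNPC KD, 23.4 after PABPC4 KD and 49.5 after double KD. The most used site, named by position, held 88.7, 84.9, 54.3 and 88.4 reads. The proximal end was about as high in HNRNPC KD as in double KD, and near control in PABPC4 KD. The logAPAR was 0.76 (SE 0.31, raw Wald p 0.0134) in HNRNPC KD, 0.61 (SE 0.35) in PABPC4 KD and 0.87 (SE 0.30, raw Wald p 0.00377, adjusted p 0.125) in double KD. The shift was not particular to this end. The site between, against the most used site, had 0.57 in HNRNPC KD, 0.82 (raw Wald p 0.0141) in PABPC4 KD and 0.77 (SE 0.31, raw Wald p 0.0116) in double KD. In double KD the proximal end against the site between had a logAPAR of 0.10 (SE 0.37, raw Wald p 0.781). Unlike the ends above, the proximal end had neither AATAAA nor an Alu word. In the letters shown, 15 bases to either side of the end, a run of T lies upstream:

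CSNK2A1 proximal end, ENST00000400217.7, chr20:483750-483779, minus strand: ctttttttttttaactcgaacttttcataa

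PPP6R3, a regulatory subunit that targets phosphatase 6, lies at chr11:68460731-68615334 on the plus strand. It shifted to the end of a retained-intron transcript, which carried AATAAA. The logAPAR was 0.75 (SE 0.30, raw Wald p 0.0115) in HNRNPC KD, −0.23 (SE 0.34) in PABPC4 KD and 0.83 (SE 0.28, raw Wald p 0.00339, adjusted p 0.117) in double KD. PPM1F, a phosphatase that acts on calcium/calmodulin-dependent kinases and on PAK kinases, passed in HNRNPC KD alone of the 3 tables; the difference from double KD did not pass (p 0.559 by the test of double KD minus HNRNPC KD). Its AATAAA end at position 21919427 of chromosome 22 held 199 reads in control, 91.9 after HNRNPC KD, 198 after PABPC4 KD and 122 after double KD. The most proximal site held 4.14, 9.14, 4.38 and 7.31 reads, so that the logAPAR of 1.57 (SE 0.61, raw Wald p 0.00977, adjusted p 0.464) in HNRNPC KD rested on few proximal reads.

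**Figure D4:**
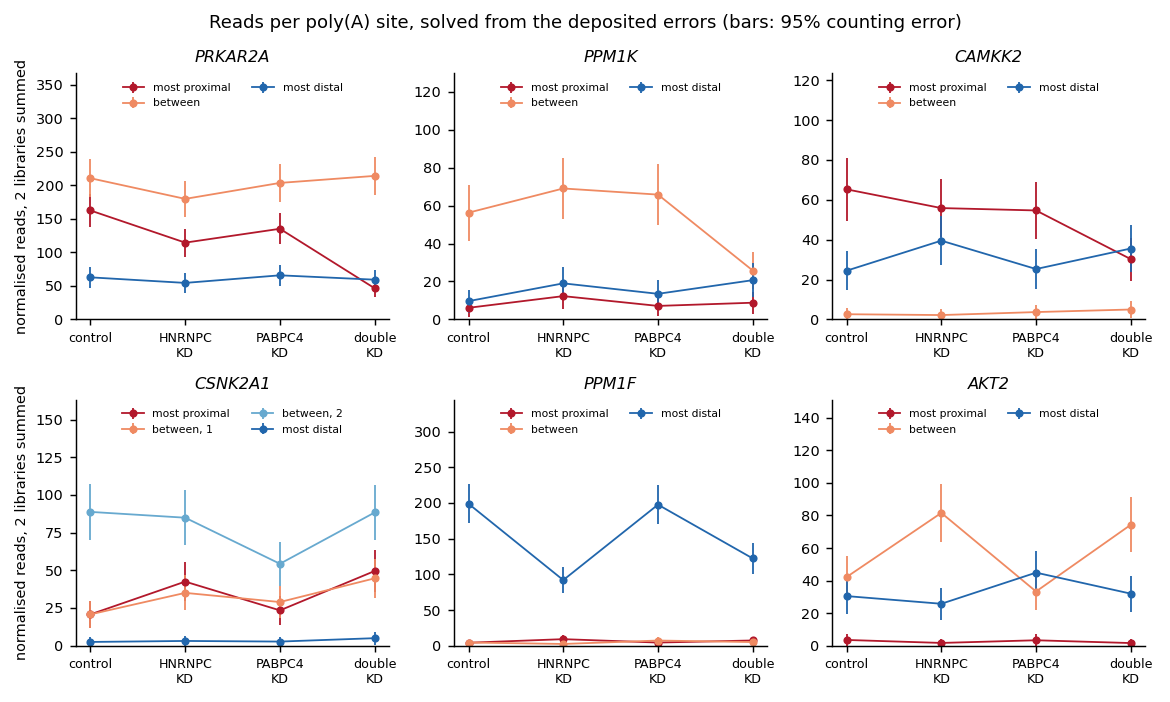
The y axis gives normalised reads of each poly(A) site, the 2 libraries of a group summed, solved from the deposited errors, with bars of 95% counting error, for PRKAR2A, PPM1K, CAMKK2, CSNK2A1, PPM1F and AKT2 in the 4 groups. In PRKAR2A and PPM1K 1 site drops in double KD (from 162 to 46.4 and from 56.3 to 25.8 reads) while the other sites do not.

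The comparison of double KD with each single KD asks what loss of the second protein adds. In double KD minus PABPC4 KD, which compares HNRNPC KD with none in PABPC4 KD cells, 3 member pairs of 2 genes passed p 0.01 with an upper-bound error (1.85%, against 1.9% of all 4692 pairs). These were PRKAR2A to the position-named site (−1.12, SE 0.25, adjusted p 0.00205 over all pairs), PRKAR2A to the AATAAA end (−0.96, SE 0.32) and PPP1R37 (0.87, SE 0.27, adjusted p 0.153). In double KD minus HNRNPC KD the same 3 pairs passed, against 1.56% of all pairs, with −1.08 (SE 0.25, adjusted p 0.00681), −0.99 (SE 0.33) and 0.89 (SE 0.27, adjusted p 0.142). All 3 have an Alu-bordered end. The departure of double KD from additivity (the value with both depleted less the values of both single KDs) passed p 0.01 at 1 member pair, PRKAR2A to the position-named site (−0.93, SE 0.29, p 0.00153, adjusted p 0.325), against 1.04% of all pairs. Errors computed from the solved reads, which exist for 102 member pairs and 2734 pairs in all, are smaller than the upper bound and pass more pairs. With them 8 of 102 member pairs passed in double KD minus PABPC4 KD, of PRKAR2A, AKT2, STK24, PPM1K, CAMK1D and CAMKK2, against 5.63% of all pairs. In double KD minus HNRNPC KD 4 of 102 passed, against 3.62%, and in the departure 2 of 102, of PRKAR2A and CAMK1D, against 2.38%.

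HNRNPC loss could be read in separate libraries: the HNRNPC KD table uses HNRNPC KD and control, and double KD minus PABPC4 KD uses the other 2 groups. With 1 pair per gene, 57 of 88 member genes (64.8%) moved the same way in both, against 55.8% of all 2639 genes. For PABPC4 loss, the PABPC4 KD table and double KD minus HNRNPC KD shared the direction at 43 of 88 member genes (48.9%), against 50.2% of all genes. At AKT2, a kinase of the PI3K pathway, a position-named site held 42.2 reads in control, 81.6 after HNRNPC KD, 33.3 after PABPC4 KD and 74.3 after double KD, while its transcript-named end held 30.5, 25.7, 44.9 and 32.0 reads. Their difference in double KD minus PABPC4 KD was 1.14; it did not pass with the upper-bound error (SE 0.46, p 0.0127, adjusted p 0.598) and passed with the error from reads (0.31, p 0.000246). The double KD value itself was 0.52 (raw Wald p 0.103).

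CAMK1D, a calcium/calmodulin-dependent kinase, held the most reads of any member site that could be solved. The end named ENST00000615792.1, which could not be placed on hg38 with the same version, held 2142 reads in control, 1933 after HNRNPC KD, 1839 after PABPC4 KD and 681 after double KD. The other transcript end of the gene held 18.9, 11.1, 11.4 and 13.6 reads. The logAPAR of the pair in double KD was −0.82 (SE 0.36, raw Wald p 0.0221) and did not pass p 0.01, and its departure from additivity, −1.61, did not pass with the upper-bound error (p 0.0125, adjusted p 0.9995) and passed only with the error from reads (p 0.00374). Reads are not corrected for a change in expression of the whole gene, which cannot be told apart from site choice where 1 site holds nearly all reads.

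Ordered by role, the MAPK cascade kinases (17 genes) had mostly negative values where HNRNPC was depleted. The median logAPAR was −0.47 in HNRNPC KD, with 13 of 17 genes negative, 0.04 after PABPC4 KD and −0.68 in double KD, with 13 of 16 genes negative; over all genes, 49.3% were negative in HNRNPC KD and 50.2% in double KD. In double KD minus PABPC4 KD, which has no library in common with the HNRNPC KD comparison but uses the double KD libraries, 13 of 16 of these genes were negative, with a median of −0.56. In double KD minus HNRNPC KD the count was 8 of 16 and the median −0.01. Only MAPK13 among them passed p 0.01, so for the other genes these are values within their error. MAPK13 passed in HNRNPC KD (1 of 36 pairs of this role, against 2.08% of all pairs) and double KD (1 of 33, against 4.33%).

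Regulatory subunits of serine/threonine phosphatases (18 genes) had mostly positive values: 2 of 15 genes were negative in double KD, with a median of 0.38, 6 of 16 in HNRNPC KD (median 0.32) and 7 of 15 in PABPC4 KD (median 0.04). PPP1R37 and PPP6R3 were the 2 that passed, both in double KD (2 of 27 pairs, against 4.33% of all pairs). Catalytic phosphatase subunits (8 genes) had medians of 0.14, −0.08 and 0.29 in HNRNPC KD, PABPC4 KD and double KD. PPM1F passed p 0.01 in HNRNPC KD (1 of 15 pairs, against 2.08% of all pairs) and PPM1K in double KD (1 of 16, against 4.33%). The other serine/threonine kinases and their subunits (34 genes) had medians of 0.04, −0.03 and −0.11 in HNRNPC KD, PABPC4 KD and double KD. In double KD 6 of their 69 pairs passed p 0.01, against 4.33% of all pairs. These were pairs of CAMKK2, CSNK2A1, PAK4, PRKAR2A and STK10, and 0 passed in either single KD. The 8 inhibitors, binding proteins and other genes of these names had medians of −0.38, −0.27 and 0.53, with 0 pairs past p 0.01. Tyrosine and dual-specificity phosphatases (15 genes) had medians of 0.05, −0.18 and −0.08, with 0 pairs past p 0.01 by the deposited Wald test and 2, 0 and 0 at an unadjusted p under 0.05. The lipid kinases and phosphatases (9 genes, among them the PI3-kinase catalytic subunits PIK3CA and PIK3CB and the myotubularins) had medians of −0.25, −0.46 and 0.19, with 0 pairs past p 0.01 and 2, 0 and 1 at an unadjusted p under 0.05. With 1 pair per gene, the cyclin-dependent kinases and relatives (6 genes) ranged from 0.30 to 1.52 in HNRNPC KD, from −0.29 to 0.70 in PABPC4 KD and from 0.10 to 0.41 in double KD, while other pairs of CDK12 were negative (to −0.97 in HNRNPC KD), with 0 pairs past p 0.01 or at an unadjusted p under 0.05 in any table.

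**Figure D5:**
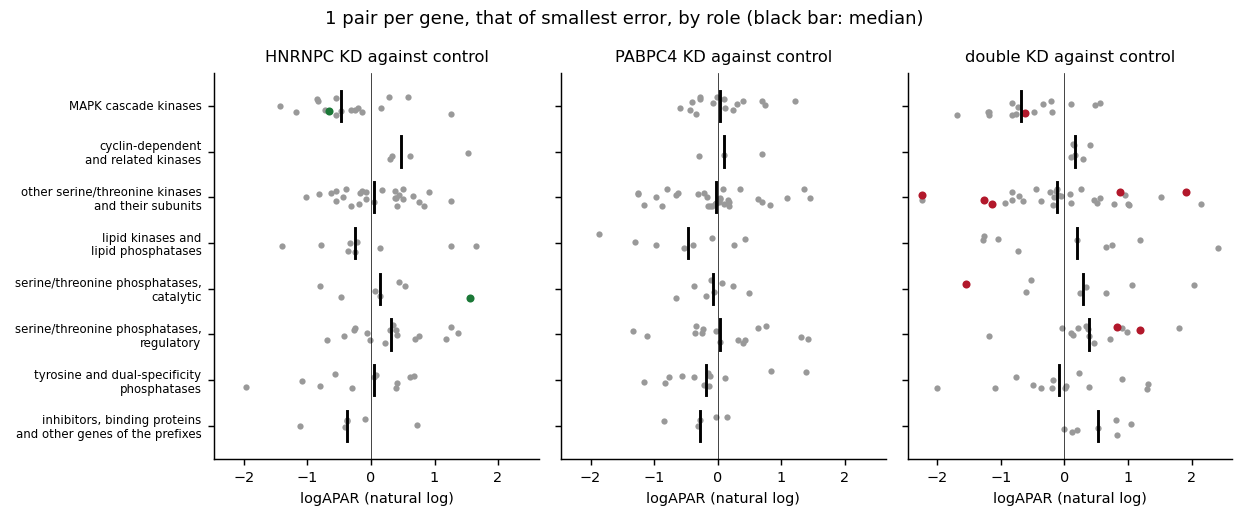
Each point is the pair of smallest error of 1 gene, with logAPAR (natural log) on the x axis, grouped by role in the 3 comparisons; black bars are medians and coloured points have p under 0.01. The median of the MAPK cascade row is −0.47 for HNRNPC KD, 0.04 for PABPC4 KD and −0.68 for double KD.

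Among genes with no call by the deposited Wald test or the upper-bound error, the 10 with the smallest error in double KD, each by its pair of smallest error, were DUSP4, a phosphatase that inactivates MAP kinases, the receptor tyrosine phosphatase PTPRF, CSNK1D (casein kinase 1 delta), PPM1G, PTP4A2, STK24, WNK1, which controls ion transport, the cyclin-dependent kinase inhibitor CDKN1C, CDK16 and the stress kinase MAP3K20. In double KD their logAPAR lay between −0.20 and 0.38 with SE from 0.14 to 0.30 and no p under 0.0850. In HNRNPC KD it lay between −0.37 and 0.51, and in PABPC4 KD between −0.27 and 0.30. At DUSP4 the value was −0.30 (SE 0.16) in HNRNPC KD, −0.14 (SE 0.14) in PABPC4 KD and −0.20 (SE 0.14) with both depleted.

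Kinase and phosphatase genes outside these symbols were counted from lists. Of 149 other protein kinases, 48 had pairs in double KD, where 5 of 98 pairs of 3 genes passed p 0.01 (5.1%, against 4.33% of all pairs): AXL, a receptor tyrosine kinase (1.25, SE 0.16), FGFR1 (1.78, SE 0.33), a receptor for fibroblast growth factors, and EIF2AK2 (−1.99, SE 0.33), the kinase activated by double-stranded RNA. In HNRNPC KD 3 of 80 pairs, of AXL (1.35, SE 0.16) and GRK6 (−1.48, SE 0.52), passed (3.75%, against 2.08% of all pairs). In PABPC4 KD 0 of 92 pairs passed the deposited Wald test at p 0.01, against 0.756% of all pairs. There 6 had an unadjusted p under 0.05, against 4.03% of all pairs. Of 40 other protein phosphatases, CTDSPL2 (1.80, SE 0.59) and CTDSP2 (0.75, SE 0.26) passed in HNRNPC KD (2 of 17 pairs, 11.8%, against 2.08% of all pairs). TIMM50, a subunit of the mitochondrial import machinery, passed in PABPC4 KD (1.97, SE 0.23) and double KD (0.96, SE 0.23). This was 1 of 19 pairs in PABPC4 KD (5.26%, against 0.756% of all pairs) and 1 of 26 in double KD (3.85%, against 4.33%). With so few pairs 1 call sets each share. No pair of the 51 other lipid kinases and phosphatases passed the deposited Wald test in any table, with 9 to 13 genes listed and 0, 0 and 1 pairs at an unadjusted p under 0.05. Of 66 genes of the MAPK cascade, members included, 27 had pairs in double KD, with a median of −0.48, and MAPK13 was among those that passed. There 2 of 53 pairs passed (3.77%, against 4.33% of all pairs). In HNRNPC KD 2 of 50 pairs of this list passed (4%, against 2.08% of all pairs), and in PABPC4 KD 1 of 53 (1.89%, against 0.756%). Of 53 genes of the PI3K, AKT and mTOR pathway, DDIT4, which restrains mTORC1, was the one that passed. Its logAPAR was 1.19 (SE 0.19) in HNRNPC KD and 1.01 (SE 0.19) in double KD. This was 1 of 43 pairs in HNRNPC KD (2.33%, against 2.08% of all pairs) and 1 of 51 in double KD (against 4.33%). In PABPC4 KD 0 of 42 pairs passed the deposited Wald test at p 0.01 (against 0.756%), and 2 had an unadjusted p under 0.05.

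In layout the member sites were like the rest of the series. Where both ends could be placed, the proximal end lay inside the last exon of the distal transcript at 25 of 39 member pairs (64.1%) and at 63.1% of all such pairs, a median of 1929 and 1720 bases apart. AATAAA lay within 50 bases of 58.6% of the member ends and 54.9% of all ends. The coding end lay a median of 2316 bases before the member transcript ends and 2024 bases before all ends.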

How the data were processed

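RNA 3′ ends of 8 MDA-MB-231 samples (4 groups of 2) were sequenced with QuantSeq REV. The submitters' processing notes name UMI-tools, Salmon 0.14.1 and hg38. The authors quantified poly(A) sites, fitted pairs of sites with APAlog (multinomial logistic regression) and deposited, per pair, the change in the proximal to distal ratio as a natural log with a raw p-value and an adjusted q-value; recomputed Benjamini-Hochberg values equalled the deposited ones. The 3 tables hold comparisons with the same control and no value per library, so depth per library is unknown. The PABPC4 KD table was assigned by elimination.

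Wald SE is the absolute logAPAR divided by the normal quantile of its p. Differences between tables added their Wald variances (an upper bound). Reads were solved at genes with 3 or more shared sites (28 of the member genes), taking each squared SE as the sum of 1/reads over both sites in both groups. Scripts used Python 3.11.15, scipy 1.17.1 and pysam 0.24.0 and were tested on simulated data. Transcript ends came from Gencode 44 on hg38 (4220 of 4787 names matched); position-named sites use a build that is not given and were not placed. The members, lists and roles were chosen with earlier results of these data known. Named were genes past p 0.01 in any of the 6 comparisons, with the pair of smallest p, and the 10 uncalled genes of smallest SE in double KD. NEK8, CSNK1A1, CDKN2AIPNL, STK3, PPP3CB-AS1, CDK12, AKT2 and CAMK1D were added after their values were seen. Alternatives were an adjusted p of 0.05, p 0.001, extreme sites per gene, pairs in all tables, a limit of 5 on absolute logAPAR, strict subunit genes, transcript-named sites and errors from reads. Some items are not reported here.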

Additional observations from a re-analysis of the deposited data

Results flagged for a closer look

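At PRKAR2A, the effect of HNRNPC loss on the proximal end against the position-named site differed between cells with and without PABPC4: the value with both depleted, less those of both single KDs, was −0.93 (upper-bound SE 0.29, p 0.00153, adjusted p 0.325 over all 4692 pairs, so that it fails the correction). With the error from solved reads (0.25) the p was 0.000241. The value rests on the fall of 1 end to 46.4 reads in double KD from 162 in control, 114 in HNRNPC KD and 135 in PABPC4 KD. A word of the Alu element lies near that end by a match of letters; the cause was not tested.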

How the results depend on the processing

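No paired analysis was possible because no value per sample was given; leaving out a replicate could not be run for the same reason. Other settings chosen at the start left the member counts within 1.5 times and the medians within their intervals in 33 cases and moved 12 counts. At an adjusted p of 0.05 the member pairs numbered 0 in HNRNPC KD, 5 in double KD, 1 in double KD minus PABPC4 KD, 1 in double KD minus HNRNPC KD and 0 in the departure from additivity; at p 0.001 they numbered 0 in HNRNPC KD and 5 in double KD. With pairs of 2 transcript-named sites, 0 passed in HNRNPC KD and 5 in double KD, of fewer pairs (42 and 41). With errors from solved reads, 8 of 102 pairs passed in double KD minus PABPC4 KD (5.63% of all pairs did) and 2 of 102 in the departure (2.38% of all pairs), and with 1 pair of extreme sites per gene 0 passed in the departure. In an alternative added after seeing the data, leaving out pairs with an Alu word at an end, 4 pairs were left in double KD (of 189), 0 in double KD minus PABPC4 KD, 0 in double KD minus HNRNPC KD and 0 in the departure. The median over member genes changed sign, within its interval, in HNRNPC KD with all pairs (0.05), with pairs in all 3 tables (0.01) and with subunit genes only (0.05), and in PABPC4 KD with all pairs (0.02). Other definitions of an Alu-bordered end, also chosen after seeing the data, left its median log ratio within the interval of the median in 34 cases and moved it out in 8. Those intervals are wide for the members: in double KD the member median of −1.15 became −0.30 with TGAGGCAGG alone (3 pairs) and −0.30 without a run of A (7 pairs). Depth limits single genes: at the median SE, a single pair needed a logAPAR of 2.05 in double KD.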
